A study of Homo sapiens with 4 samples.

Results

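The human major histocompatibility complex (MHC) on the short arm of chromosome 6 held 322 of the 38123 BRPF3 peaks in the 3 deposited peak lists. A peak was taken as a member when it lay on chromosome 6 with its centre between 28.5 and 33.5 Mb of hg19. This rule uses position only. The members were 96 of 11532 peaks in mimosine cells, 113 of 13431 in HU cells and 113 of 13160 in asynchronous cells. Peaks that overlapped by at least 1 bp were merged, which gave 117 MHC regions of 14039 in the genome. The series mapped BRPF3 by chromatin immunoprecipitation and sequencing (ChIP-seq) in RKO, an established human colon carcinoma line, with a rabbit antibody made in a laboratory against BRPF3. Mimosine cells (M-BRPF3) were kept in 0.5 mM mimosine for 22 h. HU cells (M_HU-BRPF3) had the same mimosine block, were released for 3 h and then received 3 mM hydroxyurea for 1 h 30 min. Asynchronous cells (AS-BRPF3) grew without treatment. The control for all 3 lists, per their names, was a rabbit IgG library from cells treated as the HU cells were, so it matches only that condition. Each condition had 1 library, without replicates, and no test between conditions was made. The labels are at odds in 1 place, where a free-text field speaks of other BRPF proteins while titles and antibody entries give BRPF3.

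BRPF3 is a scaffold subunit of histone acetyltransferase complexes of the MYST family and carries domains that read histones. With the catalytic subunit HBO1 (KAT7) it is known for acetylation of histone H3 and for a role at replication origins. The MHC is among the most gene-dense parts of the genome and is divided by gene content. Class I genes encode the molecules that present peptides from inside the cell. Class III holds genes of many functions, among them complement components, the cytokine TNF, heat shock proteins and RNA-processing factors. Class II genes such as HLA-DRB1 and HLA-DQA1 encode the molecules by which immune cells present peptides taken up from outside, and they are silent in most other cells unless induced. The flanks are called extended class I, with olfactory receptor and tRNA genes, and extended class II, with genes such as RXRB, RING1 and DAXX.

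The stretches were set by hg19 position, from textbook knowledge of the gene order. Extended class I ran from 28.5 to 29.6 Mb, class I to 31.5 Mb, class III to 32.2 Mb, class II to 33.1 Mb and extended class II to 33.5 Mb. The gene table used here is of GRCh38.p14, so it served for names and order only, and no peak was assigned to a gene. In that order, extended class I (SCAND3 to OR2H2) held 19 protein-coding genes, 14 of them olfactory receptors, and 38 of the 155 tRNA genes of chromosome 6. All 38 tRNA genes came first, between SCAND3 and ZNF311, and all 14 receptor genes came after them. Class I (GABBR1 to MICB) held 52 protein-coding genes, class III (MCCD1 to NOTCH4) 59, class II (TSBP1 to HLA-DPB2) 20 and extended class II (HCG24 to ZBTB9) 20. The other 4 stretches held 0 tRNA genes.

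Promoters of these stretches differed in CpG content, which is given here as a description of their genes. A link between CpG content and BRPF3 peaks was not tested. The dinucleotide CG was counted in the 250 bases before each gene's start in the RefSeq promoter table (GRCh38.p14), using the start with most CG where a gene had several. At least 10 CG were found in 650 of the 928 protein-coding genes of chromosome 6 with a sequence (70.04%). The share was 15 of 17 genes in extended class II, 31 of 46 (67.4%) in class I and 32 of 53 (60.4%) in class III. In the first part of extended class I, from SCAND3 to ZNF311, the share was 2 of 2. It was 0 of 15 in the olfactory receptor part of extended class I and 0 of 8 in the first part of class II, from TSBP1 to HLA-DQB2. In the second part of class II, from HLA-DOB to HLA-DPB2, it was 6 of 11. The 100 bases before the start are given below for example genes, 5′ to 3′ on the gene's own strand, with each CG in capitals. They come from the olfactory receptor part, class III and each part of class II, and the other parts have no example. OR2H2 (plus strand) encodes an olfactory receptor, DDX39B (minus strand) an RNA helicase of class III, HLA-DQA1 (plus strand) the alpha chain of a class II molecule, and BRD2 (plus strand) a bromodomain protein encoded among the class II genes.
OR2H2: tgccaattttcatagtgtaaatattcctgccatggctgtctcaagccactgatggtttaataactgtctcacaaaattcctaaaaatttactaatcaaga
DDX39B: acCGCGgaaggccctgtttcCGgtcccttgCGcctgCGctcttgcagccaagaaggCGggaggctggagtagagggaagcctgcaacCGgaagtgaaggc
HLA-DQA1: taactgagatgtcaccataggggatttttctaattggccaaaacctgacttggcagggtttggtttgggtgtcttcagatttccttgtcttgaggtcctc
BRD2: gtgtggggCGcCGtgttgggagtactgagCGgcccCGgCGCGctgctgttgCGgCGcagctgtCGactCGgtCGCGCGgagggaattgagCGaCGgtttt
These windows held 0 CG in OR2H2, 7 in DDX39B, 0 in HLA-DQA1 and 15 in BRD2. In the 250 bases BRD2 held 30 CG, the maximum in the second part of class II, where the median was 14. Such windows describe single genes of a stretch and place no peak at them.

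The MHC carried about 6 times as many BRPF3 peaks per Mb as the rest of chromosome 6. There were 19.2 peaks per Mb in mimosine cells (95% exact Poisson interval 15.6 to 23.5), 22.6 in HU cells (18.6 to 27.2) and 22.6 in asynchronous cells (18.6 to 27.2). The rest of the chromosome had 3.06 (2.80 to 3.34), 3.72 (3.43 to 4.02) and 3.59 (3.30 to 3.89) in the same order of lists. The ratio was 6.27 in mimosine cells (exact interval 4.99 to 7.82), 6.08 in HU cells (4.93 to 7.44) and 6.30 in asynchronous cells (5.11 to 7.72). All these intervals cover counting error only, and peaks that cluster are not independent counts. The MHC thus held 15.9% of mimosine, 15.5% of HU and 16.0% of asynchronous peaks of chromosome 6 on 2.93% of the span between its first and last peak. These densities are by length and not by gene. Of the 1049 protein-coding genes of chromosome 6, extended class I held 19, class I 52, class III 59, class II 20 and extended class II 20. Whether peak density differs from gene density was not tested. Peaks covered 198.3 kb of the MHC in mimosine cells (3.97% of its length), 369.1 kb in HU cells (7.38%) and 330.5 kb in asynchronous cells (6.61%), against 0.596%, 1.13% and 1.04% of the rest.

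**Figure D1:**
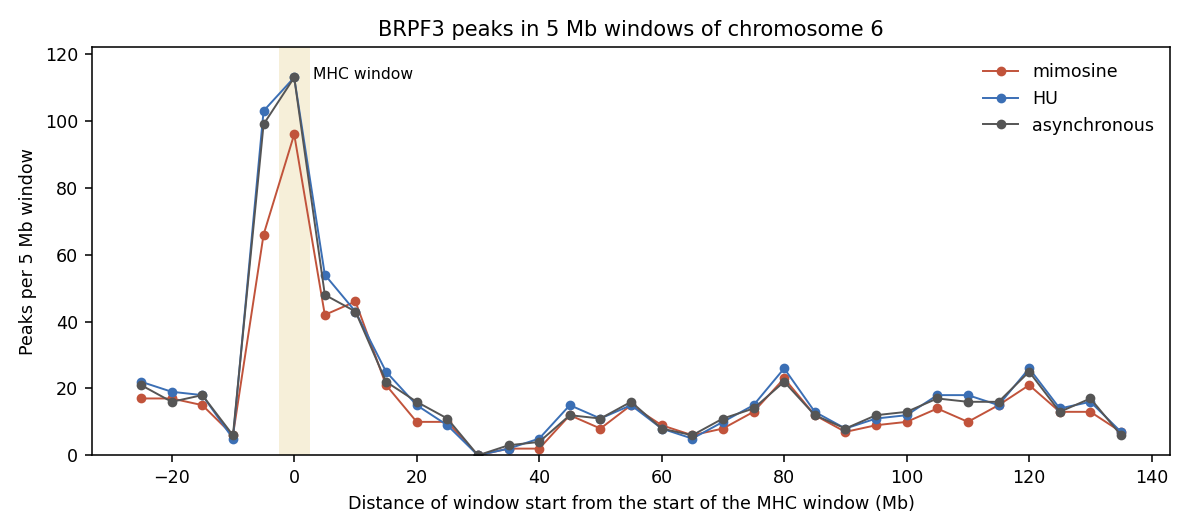
Number of BRPF3 peaks (vertical axis) in consecutive 5 Mb windows of chromosome 6, placed by the distance of the window start from the start of the MHC window in Mb, with 1 line per list. The MHC window, shaded, held 96 mimosine, 113 HU and 113 asynchronous peaks, more than any of the other 32 windows.

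Among the 33 windows of 5 Mb on chromosome 6, none held as many peaks as the MHC window in any list. The grid was laid from the MHC borders and no shifted grid was tried, so this rank holds for that grid only. The next highest window held 66 peaks in mimosine, 103 in HU and 99 in asynchronous cells, and it lay directly below the MHC. The median of the other windows was 12 peaks in mimosine, 15 in HU and 13.5 in asynchronous cells. At the median, MHC peaks were neither wider nor higher in score than those of the rest of the chromosome. Their widths had a median of 1596 bp in mimosine cells (interquartile range 1140 to 2580 bp), against 1697 bp in the rest of chromosome 6. It was 2714 bp in HU cells (1731 to 4113 bp), against 2744 bp in the rest. In asynchronous cells it was 2351 bp (1666 to 3318 bp), against 2618 bp in the rest. The widest peak measured 8751 bp in mimosine, 11848 bp in HU and 13736 bp in asynchronous cells, against 7019, 14805 and 12555 bp in the rest. Peaks wider than 10 kb were 0 of 96 in mimosine, 3 of 113 in HU and 3 of 113 in asynchronous cells, against 0 of 507, 2 of 616 and 4 of 594 in the rest. The authors' score, the peak caller's p-value on a negative log10 scale, was read only as a rank percentile within its own list. The median rank percentile of MHC peaks was 39.96 in mimosine, 44.5 in HU and 39.0 in asynchronous cells, against 46.6, 46.3 and 49.5 in the rest of the chromosome.

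Peak density differed between the stretches and was highest in class III in all 3 lists. It was lowest in class II in HU and asynchronous cells and in extended class I in mimosine cells. In mimosine cells these stretches held 5 peaks each, so their order there follows from their lengths, and their intervals overlapped. Class III, the shortest but for extended class II, had 44.3 peaks per Mb in mimosine cells (30.1 to 62.9), 41.4 in HU cells (27.7 to 59.5) and 40 in asynchronous cells (26.6 to 57.8). Extended class II followed with 32.5 (17.3 to 55.6), 30 (15.5 to 52.4) and 35.0 (19.1 to 58.7). Its intervals overlapped those of class III in every list, and with the 5766 top-scoring peaks of each list it stood above class III, at 17.5 against 15.7 in mimosine, 20 against 18.6 in HU and 22.5 against 15.7 in asynchronous cells. Class I had 22.1 (15.9 to 29.9), 23.7 (17.3 to 31.7) and 22.6 (16.4 to 30.5) peaks per Mb. Class II had 5 peaks in each list, which is 5.56 per Mb (1.80 to 13.0), and its intervals lay below those of class I in all 3 lists. Extended class I was the stretch in which the lists parted. Mimosine cells had 4.55 peaks per Mb there (1.48 to 10.6), HU cells 20.0 (12.5 to 30.3) and asynchronous cells 20.9 (13.3 to 31.4), so the mimosine interval lay below both others. At scores of 100 or more, on fewer peaks, the densities were 1.82 in mimosine, 10.9 in HU and 7.27 in asynchronous cells. Intervals at that cut were not computed, so a separation of the lists is not shown without the low-scoring peaks. With the 5766 top-scoring peaks of each list the difference was not seen, at 0.909 peaks per Mb in each list. That cut left 1 region with HU and asynchronous peaks there, as most peaks of the stretch ranked low in every list. It therefore cannot decide whether the lists differ in this stretch.

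**Figure D2:**
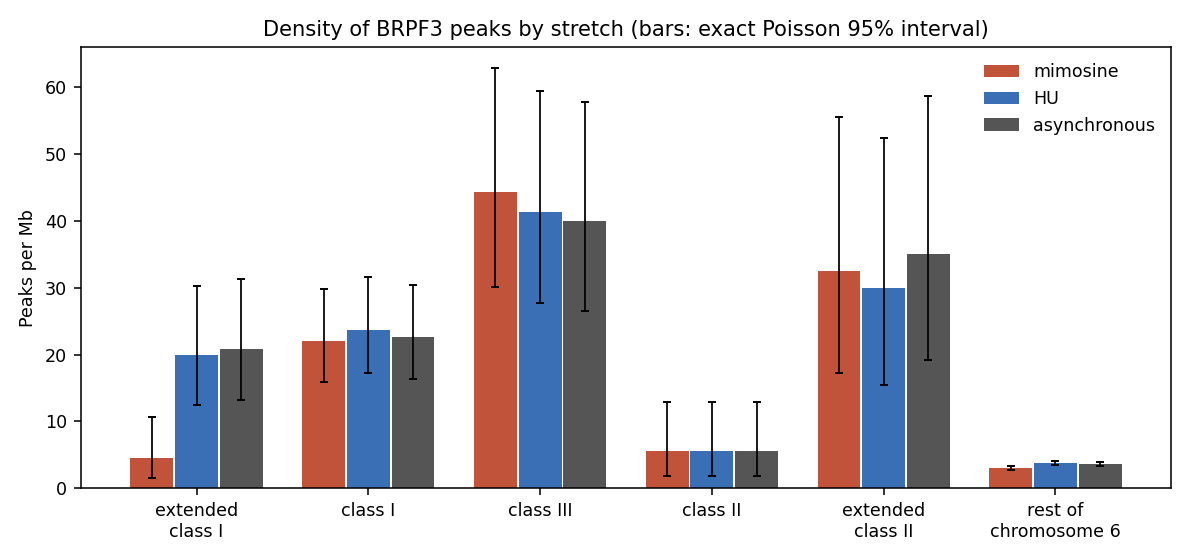
BRPF3 peaks per Mb (vertical axis, from 0) in the 5 MHC stretches and in the rest of chromosome 6, with 1 bar per list and error bars giving the exact Poisson 95% interval of the count. Class III stands at 40 to 44.3 peaks per Mb, class II at 5.56 in every list, and extended class I at 4.55 in mimosine cells against 20.0 in HU and 20.9 in asynchronous cells.

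Against the rest of chromosome 6, class III was denser by a factor of 14.5 in mimosine (9.73 to 20.8), 11.1 in HU (7.40 to 16.2) and 11.2 in asynchronous cells (7.35 to 16.3). Pieces of a split region count singly here. The 31 mimosine peaks of class III lay in 24 merged regions. Its 29 HU peaks lay in those 24, in 2 regions shared with asynchronous cells only and in 2 of HU cells alone. For class II the factor was 1.82 (0.587 to 4.26), 1.49 (0.483 to 3.51) and 1.55 (0.501 to 3.64), and all 3 intervals held 1. Extended class I gave 1.49 (0.480 to 3.49) in mimosine cells, an interval that also held 1, against 5.38 (3.35 to 8.22) in HU and 5.83 (3.67 to 8.83) in asynchronous cells. Windows of 0.7 Mb, the length of class III, were laid along chromosome 6 from its lower border, and no shifted grid was tried. Of the other 242 windows, 0 held as many mimosine peaks as class III did, at most 29 against 31. In HU cells 1 window held more than class III, with 37 peaks against 29. In asynchronous cells 1 window also held more, with 39 against 28.

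**Figure D3:**
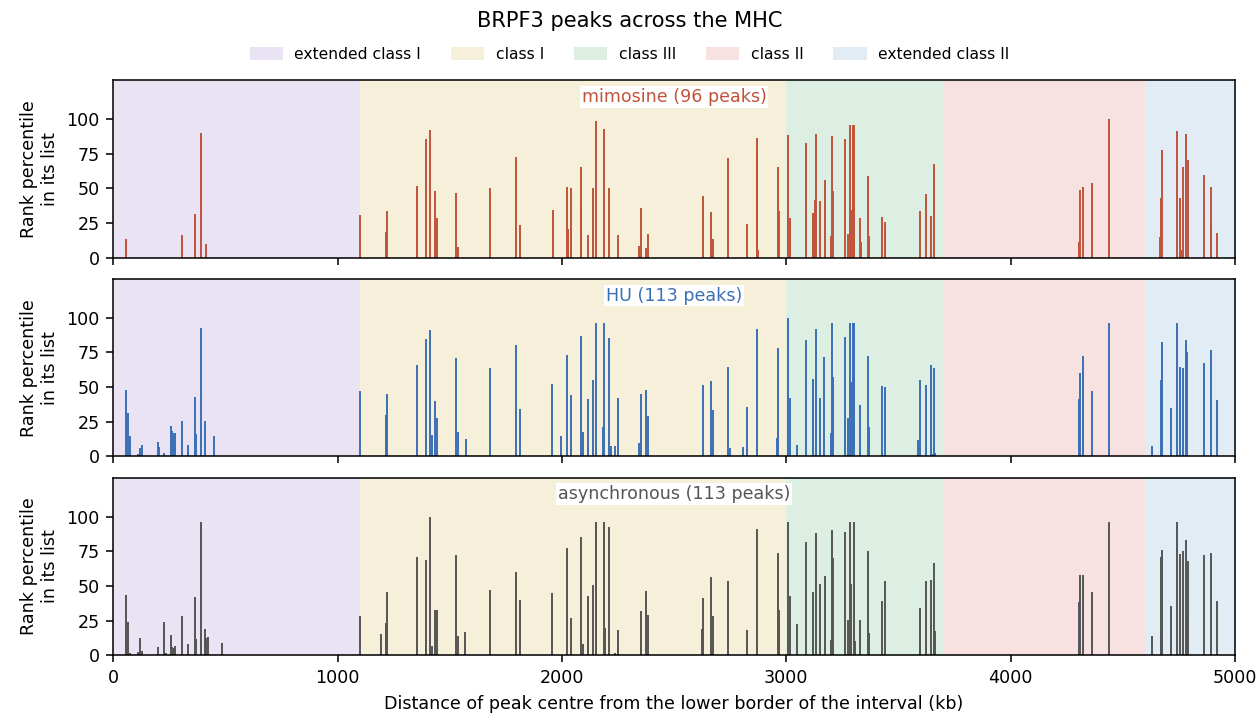
BRPF3 peaks along the MHC, drawn at the distance of the peak centre from the lower border of the interval (horizontal axis, kb), with the height giving the rank percentile of the authors' score within its own list and shading marking the 5 stretches. Class III is densely filled in every list, extended class I and class II each have a long part without a peak, and the low-ranking peaks at the start of extended class I are mostly missing from the mimosine list.

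Long peak-free intervals set the stretches apart. Of the 5 Mb, 25.1% lay in 2 intervals without a peak in any list. The longer, chr6:32164725-32804484, ran for 639.8 kb from the end of class III into class II. The other, chr6:28985407-29598902, covered 613.5 kb, nearly the whole upper part of extended class I. The next in length, chr6:30884230-31124929 in class I, measured 240.7 kb. In gene order, the upper part of extended class I holds the olfactory receptor genes and the first part of class II the HLA-DR and HLA-DQ genes, both with 0 promoters of 10 or more CG. The positions of these genes were not matched to the peaks, and a link between CpG content and peak-free intervals was not tested. Outside these intervals neighbouring regions lay close together. The median gap between regions was 18.2 kb in the MHC, against 70.5 kb in the rest of chromosome 6. Intervals of 200 kb or more made up 3 of 117 gaps in the MHC and 171 of 635 in the rest. Alignment settings are not given in the sources used here and read depth is unknown, so an interval without a peak is not shown to be without BRPF3. The lists held 0 peaks on alternative haplotype sequences of the MHC.

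Class III held 29 regions on 658.9 kb, a gap of 8.66 kb at the median, and most of them had a peak in all conditions. Of the 29, 24 (82.8%, exact binomial interval 64.2 to 94.1%) had a peak in every list, at median rank percentiles of 43.5 in mimosine, 56.4 in HU and 53.8 in asynchronous cells. The share with a peak in every list was 69.3% in the rest of chromosome 6 and 71.5% in the genome, both inside the class III interval. The top 25% of every list was reached by 16 of the 76 MHC regions with a peak in all lists. These were 7 of 24 in class III, 4 of 33 in class I and 3 of 10 in extended class II. Extended class I gave 1 of 4 and class II 1 of 5. The genome's share at this rank was not computed, so these counts are not shown to be high or low. The widest region of class III, chr6:31793685-31807321, spanned 13637 bp. Its peaks measured 9136 bp in mimosine cells in 2 pieces, 13407 bp in HU cells in 2 pieces and 13585 bp in asynchronous cells in 1 piece. They stood at rank percentile 95.8 in the mimosine, 96.1 in the HU and 96.0 in the asynchronous list.

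Below it in position, chr6:31783083-31785800 had the highest lowest rank of the stretch, at 95.95 in mimosine, 96.1 in HU and 96.0 in asynchronous cells. This region was narrow, with 2011 bp in mimosine, 2718 bp in HU and 2559 bp in asynchronous cells. At the border to class I, chr6:31505842-31511355 stood at 88.5 in mimosine, 99.6 in HU and 96.0 in asynchronous cells. The region chr6:31626648-31636210, 9563 bp long, stood at 89.2, 91.9 and 88.4 in the same order. The narrowest mimosine peaks relative to asynchronous ones in class III were at chr6:32142517-32147929, with 1787 bp in 2 pieces in mimosine cells, 5280 bp in HU cells and 4763 bp in asynchronous cells. At the other end, chr6:31936960-31941778 kept 3445 bp in mimosine cells, against 4819 bp in HU and 3711 bp in asynchronous cells. It was followed by the longest peak-free interval within class III, chr6:31941779-32086405, of 144.6 kb.

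Class I held 46 regions, of which 33 (71.7%, 56.5 to 84.0%) had a peak in all 3 lists, near the 71.5% in the genome. The widest region of class I, chr6:30645727-30659472, spanned 13746 bp and was the widest of the MHC. Mimosine peaks covered 8006 bp of it, HU peaks 11848 bp and asynchronous peaks 13736 bp. It scored 3100 in every list, a value at which many peaks of a list are tied. Together with the region described below in class II, it was 1 of 2 MHC regions at 3100 or more in all 3 lists. A second strong region, chr6:30683731-30691913, measured 3695 bp in mimosine, 7243 bp in 2 pieces in HU and 8183 bp in asynchronous cells.

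The broad region chr6:31363868-31374701 was 1 HU peak of 10834 bp, 3 mimosine peaks of 6097 bp together and 1 asynchronous peak of 7420 bp. Class I also held both extremes of the ratio of mimosine to asynchronous width. At chr6:30033352-30036644 the mimosine peak was 576 bp wide, against 3152 bp in HU and 2816 bp in asynchronous cells. At chr6:30291466-30295871 the mimosine peak was 3820 bp wide, against 4406 bp in HU and 3762 bp in asynchronous cells, the only MHC region with 1 peak per list in which it exceeded the asynchronous one.

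Class II held 5 regions, all within 140.2 kb of its 0.9 Mb and all with exactly 1 peak in each list. For a peak in every list, the exact interval of 5 of 5 was 47.8 to 100%, which held the genome's share of 71.5%. The 5 regions began 604.5 kb above the lower border of the stretch and ended 155.3 kb below the upper one. In gene order the second part of class II holds genes of antigen processing, such as TAP1, TAP2, PSMB8 and PSMB9, and BRD2. The strongest region of the stretch was chr6:32934214-32944676, with peaks of 8751 bp in mimosine, 10185 bp in HU and 10318 bp in asynchronous cells. It stood at rank percentile 99.8 in the mimosine list, 96.1 in the HU list and 96.0 in the asynchronous list. The other 4 stood between 11.3 and 53.9 in mimosine, 41.0 and 72.4 in HU, and 38.6 and 58.0 in asynchronous cells. The weakest mimosine peak of the 5 was at chr6:32804485-32807078, at 11.3, beside 41.0 in HU and 38.6 in asynchronous cells. At chr6:32819607-32823108 the mimosine peak was 1303 bp wide, against 3502 bp in HU and 3006 bp in asynchronous cells.

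Extended class II held 12 regions, 10 of them in all 3 lists (83.3%, 51.6 to 97.9%), an interval that held the genome's 71.5%. Peaks of this stretch were wide, with a median of 2221 bp in mimosine, 4544 bp in HU and 3380 bp in asynchronous cells. Their median rank percentile was 51.2 in mimosine, 65.7 in HU and 71.6 in asynchronous cells. The widest and strongest region, chr6:33238471-33246141, had peaks of 6426 bp in mimosine, 7242 bp in HU and 7634 bp in asynchronous cells. It stood at 91.1 in mimosine, 96.1 in HU and 96.0 in asynchronous cells. At chr6:33173673-33177332 the mimosine peak kept 2342 bp, against 3660 bp in HU and 2721 bp in asynchronous cells. At chr6:33420810-33423496 it was down to 966 bp, against 2687 bp in HU and 2336 bp in asynchronous cells.

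Extended class I held 25 regions within 432.3 kb, which is 57.8 regions per Mb of that part, and none in the 614.6 kb above it. That occupied part was chosen after the peaks were seen. Its regions lay a median of 7.65 kb apart, and most were narrow and low in score. The median rank percentile of its peaks was 16.0 in mimosine, 15.5 in HU and 12.1 in asynchronous cells. Scores below 100 were carried by 3 of 5 mimosine, 10 of 22 HU and 15 of 23 asynchronous peaks, against 28.1%, 21.2% and 18.6% in the MHC as a whole. A single region was strong in every list. It was chr6:28888833-28892938, at rank percentile 90.0 in mimosine, 92.4 in HU and 96.0 in asynchronous cells. Its peaks measured 3291 bp in mimosine, 3729 bp in HU and 3872 bp in asynchronous cells. The first region of the interval, chr6:28553079-28556146, stood at 13.4 in mimosine, against 47.6 in HU and 43.3 in asynchronous cells. Its mimosine peak was 968 bp wide, against 2870 bp in HU and 2215 bp in asynchronous cells.

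Most regions of the MHC that lacked a mimosine peak lay in extended class I. Of the 101 MHC regions found in both HU and asynchronous cells, 25 (24.8%, exact binomial interval 16.7 to 34.3%) had no mimosine peak, against 20.8% (17.5 to 24.4%) in the rest of chromosome 6 and 17.0% over all 12104 such regions of the genome. In extended class I it was 16 of 20 (80.0%, 56.3 to 94.3%). In the other stretches together it was 9 of 81 (11.1%, 5.21 to 20.0%). By stretch these were 5 of 38 regions in class I, 2 of 26 in class III, 0 of 5 in class II and 2 of 12 in extended class II. The interval of the MHC as a whole held the genome's share. With only peaks of score 100 or more in every list, 17 of 79 MHC regions (21.5%) had no mimosine peak, against 21.2% in the genome.

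Low scores went together with the missing mimosine peaks. In the lowest 25% of the asynchronous list, 16 of 16 extended class I regions had no mimosine peak, against 8 of 14 in the other MHC stretches. The share at that rank was 72.6% (63.1 to 80.9%) in the rest of chromosome 6 and 69.9% (68.0 to 71.8%) in the genome. These 16 regions had a median asynchronous rank percentile of 9.63, and the genome's regions in that band one of 15.4, so the bands were not filled alike. Between ranks 25 and 50, 0 of 3 extended class I regions and 1 of 24 in the other stretches lacked a mimosine peak, and at 50 or above it was 0 of 1 and 0 of 43. Where HU and asynchronous peaks were limited to scores of 100 or more and all mimosine peaks were kept, an alternative chosen after seeing the data, 4 of 79 MHC regions lacked a mimosine peak (5.06%), against 8.78% in the genome. In extended class I it was 3 of 7. The part of score and depth in this pattern was not tested.

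**Figure D4:**
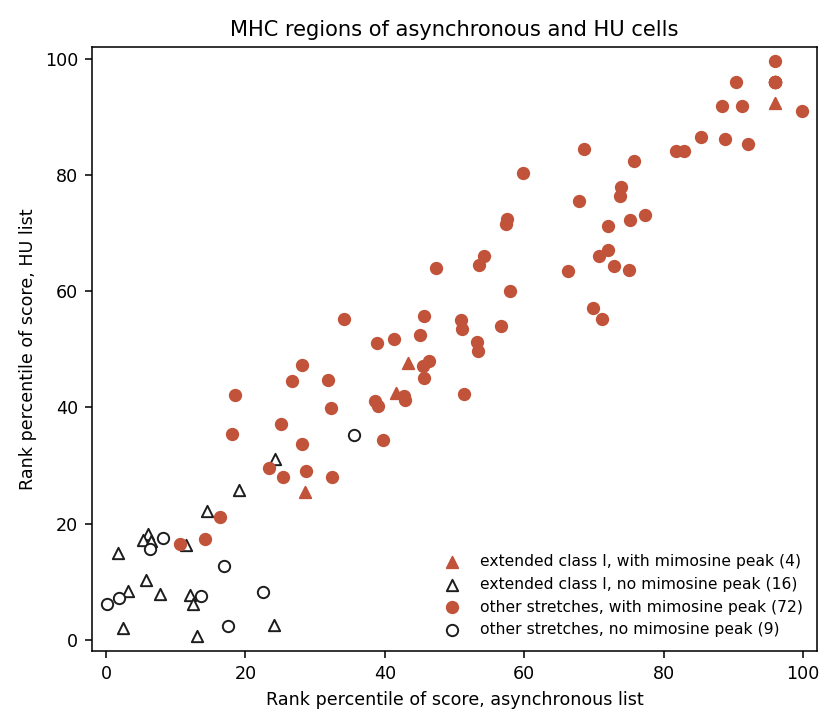
The 101 MHC regions with a peak in both HU and asynchronous cells, each placed by the rank percentile of its highest score in the asynchronous list (horizontal axis) and the HU list (vertical axis). Filled symbols have a mimosine peak, open ones do not, and triangles mark extended class I. The 25 open symbols lie in the lower left corner, at or below 35.5 on both axes, and 16 of them are triangles.

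The 16 extended class I regions without a mimosine peak were 849 to 3015 bp long. The widest, chr6:28906984-28909998, stood at 25.8 in HU and 19.1 in asynchronous cells. The highest by both lists was chr6:28564708-28566787, with rank 31.1 in HU and 24.3 in asynchronous cells and peaks of 2079 bp and 1820 bp. Next to the first region, chr6:28556639-28557954 stood at 7.75 in HU and 12.1 in asynchronous cells. In chr6:28574148-28575389, chr6:28610874-28611722, chr6:28615645-28617463, chr6:28625410-28627116 and chr6:28696207-28697561 the HU rank lay between 1.94 and 14.9 and the asynchronous rank between 1.70 and 12.5. A close row of 4, chr6:28757148-28759036, chr6:28761566-28762968, chr6:28770091-28771950 and chr6:28775310-28776638, had higher HU than asynchronous ranks. There the HU ranks were 17.1 to 22.2 and the asynchronous ranks 5.28 to 14.4. At chr6:28724962-28726937 the order was the other way, at 2.61 in HU and 24.1 in asynchronous cells. The last 3 were chr6:28830313-28832604, chr6:28865643-28866698 and chr6:28919156-28920254, with HU ranks of 0.551 to 16.2 and asynchronous ranks of 7.81 to 13.0.

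Outside extended class I, a single region without a mimosine peak passed rank 25 in both other lists. It was chr6:33215395-33218384 in extended class II, at 35.2 in HU and 35.5 in asynchronous cells, with widths of 2990 bp and 2589 bp. The other 8 were chr6:29920719-29921801, chr6:30069170-30070545, chr6:30594299-30595387, chr6:30736122-30738047 and chr6:31248134-31248936 in class I, chr6:31548322-31549621 and chr6:32162568-32164724 in class III, and chr6:33128963-33130348 in extended class II. Their HU ranks lay between 2.41 and 17.5 and their asynchronous ranks between 0.0988 and 22.5.

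Regions of other kinds were few and weak. HU cells alone held 9 MHC regions (7.69%, 3.58 to 14.1%), 2 in extended class I, 5 in class I and 2 in class III. The genome's share was 8.08%. They were 654 to 2813 bp long and all scored under 100, the highest being chr6:30495215-30496401 at rank percentile 14.6. The other 8 were chr6:28702712-28703681, chr6:28948152-28950964, chr6:30719478-30721027, chr6:31159969-31160839, chr6:31304658-31305311, chr6:31459470-31460507, chr6:32086406-32087374 and chr6:32152649-32153307. Asynchronous cells alone held 5 regions (4.27%, 1.402 to 9.69%), against 4.97% in the genome. The highest of them, chr6:30692028-30694378 in class I, lay just above a region of all 3 lists and stood at 19.3. The other 4, at ranks 1.44 to 15.5, were chr6:28732833-28733597, chr6:28984051-28985406, chr6:29690631-29692109 and chr6:31807979-31809585. Mimosine cells alone held 0 of 117 regions, which allows up to 3.10% by the exact interval. The region of mimosine and HU cells was chr6:30844768-30845888, with a mimosine peak of 344 bp and an HU peak of 1121 bp. The region of mimosine and asynchronous cells was chr6:28911035-28912892, with peaks of 769 bp and 1858 bp.

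Where all lists had a single peak, mimosine peaks were the narrower ones, to an extent close to that in the genome. Of the 59 MHC regions with 1 peak per list, the mimosine peak was narrower than the asynchronous peak in 58 and narrower than the HU peak in 59. Typical widths there, as medians, were 1654 bp with mimosine, 2870 bp with HU and 2597 bp without treatment. The median ratio of mimosine to asynchronous width was 0.696 (95% binomial interval of the median 0.621 to 0.786), against 0.660 (0.638 to 0.689) in the rest of chromosome 6. The median ratio of mimosine to HU width was 0.616 (0.536 to 0.676), against 0.606 (0.585 to 0.621) in the rest. HU peaks were wider than asynchronous ones in 47 of 59 regions, with a median ratio of 1.12 (1.08 to 1.19), against 1.07 (1.06 to 1.09) in the rest. The intervals of the MHC and the rest of the chromosome overlapped for all 3 ratios.

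**Figure D5:**
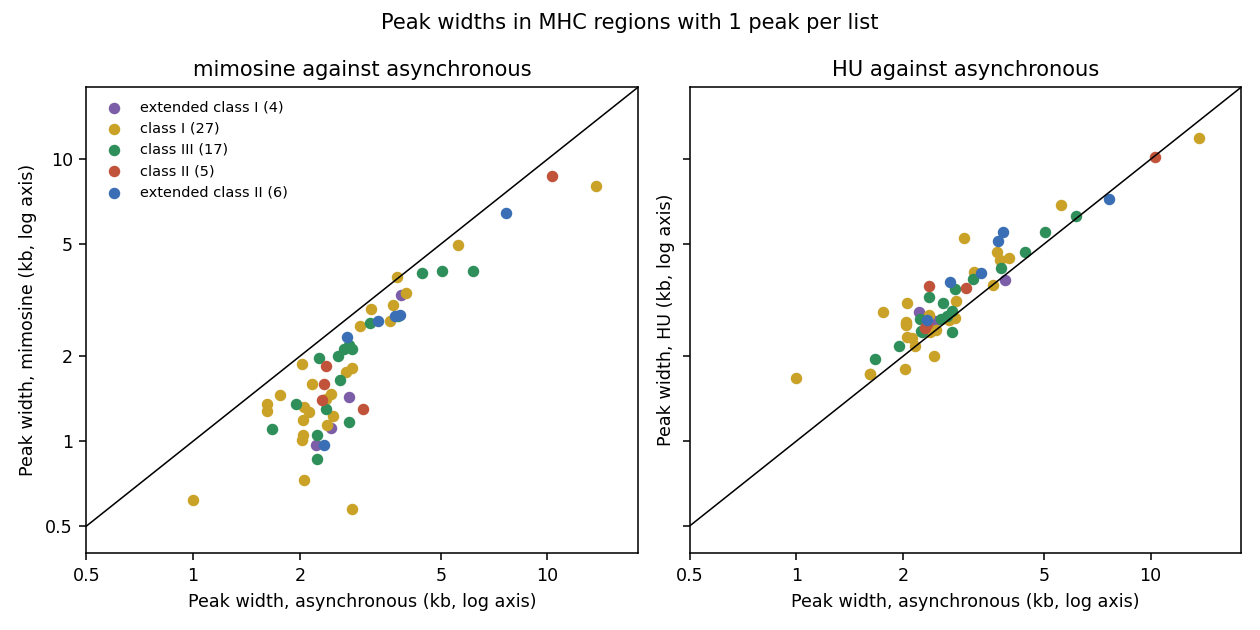
Peak width in mimosine cells (left) and HU cells (right) on the vertical axis against width in asynchronous cells on the horizontal axis, for the 59 MHC regions with 1 peak per list, in kb on log axes and coloured by stretch, with the line of equal width. In the left panel 58 of 59 points lie below the line, and in the right panel 47 lie above it.

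A narrowing of 1.5-fold or more in mimosine against asynchronous cells was met by 28 of 59 MHC regions (47.5%), against a background of 43.7% of 8653 regions over the genome. Against HU cells it was met by 36 of 59 (61.0%), with a background of 59.8%. A widening of 1.5-fold or more in HU against asynchronous cells was met by 4 of 59 (6.78%), with a background of 4.14%. These shares lay near the background. By stretch, the median ratio of mimosine to asynchronous width was 0.487 on 4 regions of extended class I, 0.649 on 27 of class I, 0.730 on 17 of class III, 0.684 on 5 of class II and 0.778 on 6 of extended class II. The intervals of these medians overlapped one another.

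Mimosine peaks were broken up more often than the others at the same regions. Of the 76 MHC regions in all 3 lists, 14 (18.4%, 10.4 to 29.0%) held 2 or more mimosine peaks, 2 (2.63%, 0.320 to 9.19%) held 2 or more HU peaks and 5 (6.58%, 2.17 to 14.7%) held 2 or more asynchronous peaks. The mimosine interval lay above that of HU cells and overlapped that of asynchronous cells. The share with 2 or more mimosine peaks was 11.9% over the genome, inside the MHC interval, and 13.2% (10.1 to 16.7%) in the rest of chromosome 6. For HU peaks it was 1.59% (0.641 to 3.24%) in the rest of chromosome 6 and 1.16% (0.9552 to 1.38%) in the genome. For asynchronous peaks it was 1.36% (0.501 to 2.94%) in the rest of chromosome 6 and 2.81% (2.49 to 3.15%) in the genome. The MHC intervals overlapped all of these. Class III held 7 of the 14, class I 4 and extended class II 3. The most broken was chr6:31460823-31468580 in class I, with 4 mimosine peaks, 1 HU peak and 3 asynchronous peaks. At chr6:30522031-30526641 there were 3 mimosine peaks against 1 peak in each other list. In base pairs, 99.6% of the length in mimosine peaks lay in HU peaks and 99.2% in asynchronous peaks. HU peaks were covered by mimosine peaks over 53.5% of their length, and asynchronous peaks over 59.5%.

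The outer borders fell in gaps between peaks. The first member above 28.5 Mb had its centre 55.2 kb inside in mimosine, 54.5 kb in HU and 55.0 kb in asynchronous cells, at rank percentiles 13.4, 47.6 and 43.3. The nearest peak below that border lay 182.1 kb outside in mimosine, 148.9 kb in HU and 149.0 kb in asynchronous cells, at 29.6, 24.5 and 17.5. At the upper border the last member lay 78.2, 77.8 and 77.8 kb inside, at 17.8, 40.3 and 39.0. The nearest peak above it lay 46.6 kb outside in mimosine, 39.4 kb in HU and 39.2 kb in asynchronous cells, at 86.3, 11.9 and 7.38.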

How the data were processed

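ChIP-seq peak lists of 3 BRPF3 libraries from RKO cells were used, with 1 library per condition. The submitters' processing notes give MACS 1.4.0, bedtools, SAMtools and Bowtie 0.12.8 but no settings. The authors deposited each peak's position and a score, which is 10 times the negative log10 of the caller's p-value judging by the list format and a minimum of 50. Both hg18 and hg19 are named in those notes, and positions follow hg19, counted from 1. Reads and depth were not analysed here.

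Peaks were assigned to stretches by centre and merged on 1 bp of overlap. Density over the rest of chromosome 6 used its remaining span of 165.6 Mb, assembly gaps included. Intervals at 95% are exact Poisson, Clopper-Pearson or order-statistic ones. For medians of 5 or fewer regions the interval is the full range, which falls short of 95%. Code was tested on simulated data with planted peaks, with SciPy 1.17.1, NumPy 2.4.6, matplotlib 3.10.9 and pandas 2.3.3 under Python 3.11.15. Named regions are, per stretch, the widest, the one whose lowest rank is highest and those of smallest and largest mimosine to asynchronous width, all regions missing from a list, the 3 longest peak-free intervals and the border peaks. Further regions named were picked with their values in view. The members, stretches and lists were chosen with earlier results of these data known. The planned counts of genes with a promoter peak were not run, because the gene table is of another build. A result withheld for evaluation is not reported here.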

Additional observations from a re-analysis of the deposited data

How the results depend on the processing

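No paired analysis was possible because each condition had 1 library. Of 101 values recomputed under alternatives, 80 stayed inside the 95% interval of the value reported and 21 did not. Some of the 80 could hardly leave it, as membership by overlap changed no value and small stretches have wide intervals. The tally is therefore no measure of robustness. Lower counts follow from leaving out peaks. With a score of 100 or more, MHC density was 13.8 peaks per Mb in mimosine, 17.8 in HU and 18.4 in asynchronous cells. Class I density was then 15.3 in mimosine cells, and extended class I density was 10.9 in HU and 7.27 in asynchronous cells. In mimosine cells extended class I density was 1.82, which stayed inside its interval. With the 5766 top-scoring peaks of each list, MHC density was 7.20, 7.80 and 7.40 in mimosine, HU and asynchronous cells, class I density 7.37, 7.37 and 6.84, class III density 15.7, 18.6 and 15.7, and extended class I density 0.909 in each list. The gap between lists in extended class I was then not seen, but too few peaks were left there to compare the lists. Extended class II, at 17.5, 20 and 22.5, then stood above class III in every list, and extended class I below class II, at 3.33 in each list. At these numbers the MHC was denser than the rest of chromosome 6 by 4.79 in asynchronous cells. Of 35 MHC regions of HU and asynchronous cells, 4 (11.4%) then had no mimosine peak, against 7.06% in the genome. With HU and asynchronous scores of 100 or more and all mimosine peaks, chosen after seeing the data, the MHC share was 5.06%, against 8.78% in the genome. Leaving out peaks wider than 10 kb, membership by overlap, other stretch borders, merging within 1 kb and leaving out the longest peak-free interval of chromosome 6 moved no value out of its interval. Unknown depth limits what a missing peak means.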

Other observations

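In the 5 Mb window directly below the MHC, mimosine cells had 66 peaks, HU cells 103 and asynchronous cells 99, from whole lists of 11532, 13431 and 13160 peaks, while the window directly above the MHC held 42, 54 and 48.

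The rank of a few shared regions differed widely between lists. They were picked with their values in view, and no replicate bears on them. At chr6:30706268-30713139 in class I the rank percentile was 50.5 in mimosine, 85.4 in HU and 92.1 in asynchronous cells. At chr6:30875074-30877660, also in class I, it was 7.17 in mimosine, 48.0 in HU and 46.4 in asynchronous cells. The order was the other way at chr6:30537749-30542992, with 49.9 in mimosine, 44.5 in HU and 26.7 in asynchronous cells, and at chr6:31237804-31240611, with 71.9 in mimosine, 64.5 in HU and 53.5 in asynchronous cells.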
